A study of Homo sapiens with 4 samples.

Results

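Chromatin immunoprecipitation sequencing (ChIP-seq) of the forkhead transcription factor FOXK2 in OVCAR5 cells gave peaks near some genes of the Notch pathway and not near others. The pathway was taken as 10 genes: the receptors NOTCH1, NOTCH2 and NOTCH3, the ligands JAG1, JAG2 and DLL1, the nuclear proteins RBPJ and MAML2, and the targets HES1 and HEY1. A peak belonged to one of these genes when the deposited annotation named that gene for it, which HOMER, the peak caller, does by the nearest transcription start site (TSS). By this rule the 10 genes held 7 of 12471 peaks in replicate 1 and 12 of 27281 peaks in replicate 2. The whole reference annotation held 20056 protein-coding genes.

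OVCAR5 is an established human ovarian cancer cell line, labelled high grade serous with ascites as its source. The 2 FOXK2 libraries were biological duplicates, grown in RPMI medium with serum and labelled with no treatment, genetic change or second condition. Input libraries were made for both replicates but are not analysed here. The lists hold no expression values, so neither the identity of the cells nor the activity of the pathway could be read from them.

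Notch signalling passes between touching cells. A ligand of the Delta or Jagged family on one cell binds a Notch receptor on its neighbour, proteases cut the receptor, and the freed intracellular domain enters the nucleus, where it joins the DNA-binding protein RBPJ and a Mastermind coactivator at genes such as HES1 and HEY1. The HES and HEY proteins are repressors that hold back differentiation, and the NOTCH3 gene is amplified in some ovarian carcinomas. FOXK2 carries a forkhead domain, whose best known DNA letters are the heptamer TGTTTAC.

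Of the 10 genes, 4 had a peak in replicate 1 (HES1, HEY1, JAG1 and RBPJ) and 5 in replicate 2, where NOTCH1 was added. Over all protein-coding genes, 31.3% had a peak in replicate 1 and 51.7% in replicate 2, so that 4 and 5 of 10 were near the general rate. The same 4 genes had a peak in both replicates, against 28.6% of protein-coding genes. In each of the 4 at least 1 peak of replicate 1 overlapped a peak of replicate 2 by 1 bp or more, which held for 25.5% of protein-coding genes. NOTCH2, NOTCH3, JAG2, DLL1 and MAML2 were named for no peak in either list. By role, both targets, 1 of 3 ligands, 1 of 2 nuclear proteins and 0 of 3 receptors had peaks in both replicates.

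The sequences of the peaks fell into separate kinds. Of the peaks of HES1, JAG1 and RBPJ far from the start site, all those found in both replicates, and 1 RBPJ peak of replicate 2 alone, held 1 copy of TGTTTAC or of its reverse complement GTAAACA within 100 bp of the peak centre. The other 4 distal RBPJ peaks, each in 1 list only, held none. Of all peaks not called promoter-TSS, found in both lists or not, 35% in replicate 1 and 32% in replicate 2 held it. The matches at HES1, JAG1 and RBPJ are shown as 67 bases around the match, with the heptamer in capitals. All are on the plus strand of hg38 (GRCh38). The first is 14 kb upstream of HES1 at chr3:194122065-194122131, the second 32 kb upstream of JAG1 at chr20:10706064-10706130, the next 174 kb upstream of the annotated RBPJ start at chr4:26145385-26145451, and the last 81 kb upstream of that start at chr4:26238455-26238521.
HES1 distal: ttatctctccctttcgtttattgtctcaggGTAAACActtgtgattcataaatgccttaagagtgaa
JAG1 distal: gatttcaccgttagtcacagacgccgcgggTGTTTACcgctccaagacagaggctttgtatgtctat
RBPJ distal: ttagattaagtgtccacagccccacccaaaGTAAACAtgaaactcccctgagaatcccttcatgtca
RBPJ intronic: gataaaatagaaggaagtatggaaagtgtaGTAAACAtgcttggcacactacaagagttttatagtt

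The highest-scoring peak of the group, next to HES1, held no TGTTTAC. Its 211 bases in replicate 1 (chr3:194134825-194135035, plus strand, hg38) were 74.9% G and C with 22 CpG dinucleotides. They are shown because 1 site in them came within a single base of the heptamer, given in capitals. Read on the plus strand, with position 1 at its 5′ end, that site differed from TGTTTAC by G2A, and it lay 16 bp from the peak centre. With any base allowed at that position (TNTTTAC), the letters were within 100 bp of the centre in 39.9% and 38.1% of all peaks.
HES1 proximal: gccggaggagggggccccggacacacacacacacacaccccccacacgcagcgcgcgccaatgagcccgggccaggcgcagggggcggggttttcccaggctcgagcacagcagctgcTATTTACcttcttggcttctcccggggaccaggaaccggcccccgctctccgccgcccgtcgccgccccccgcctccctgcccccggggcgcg

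The RBPJ promoter peak also held no TGTTTAC, but it held 2 copies of GTGGGAA, the letters that the RBPJ protein itself is known to prefer. These windows of 29 bases, with GTGGGAA or its reverse complement TTCCCAC in capitals, are at chr4:26319620-26319648 and chr4:26319662-26319690. Another window, at chr3:194136052-194136080, is from the RefSeq promoter of HES1 and is shown because this promoter is a classical target of RBPJ. Its copy of GTGGGAA was 82 bp upstream of the HES1 start and 1136 bp from the centre of the HES1 peak, and so outside it.
RBPJ promoter upstream copy: gtttaggaaatTTCCCACggccgtgttgt
RBPJ promoter downstream copy: agtggaaggcgGTGGGAAggaggtgtagc
HES1 promoter copy: tgaaagttactGTGGGAAagaaagtttgg

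**Figure D1:**
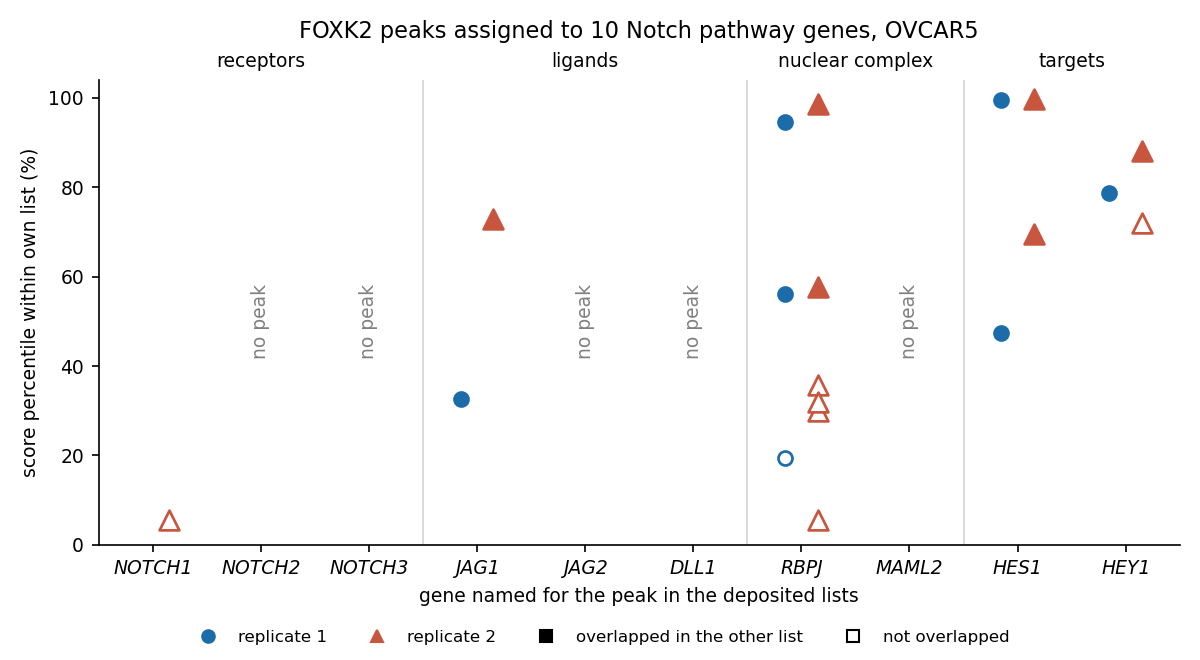
Score percentile (percent of the peaks of the same list with a lower score) of every peak assigned to each of the 10 genes, with 1 point per peak, circles for replicate 1, triangles for replicate 2, and filled points for peaks overlapped in the other list. HES1 and RBPJ reach the top of both lists, and 5 genes have no point.

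Peak scores are given in the deposited unit, tags scaled to the size of the library, and are ranked only within their own list. In both lists, scores under 10 were whole multiples of a smallest step, within the rounding of the deposited scores, so the number of tags behind a score could be read back. The weakest peaks rested on 16 tags in replicate 1 and 21 in replicate 2. The peaks of the 10 genes rested on 24 to 176 tags and 27 to 413 tags. A percentile is the percent of peaks in the same list with a lower score.

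Among the receptors, which receive the signal, only NOTCH1 was named for a peak, and only in replicate 2. That peak (chr9:136539573-136539829) lay in intron 2 of 33, 6085 bp downstream of the start. Its score was 4.02, from about 27 tags, at rank 25156 of 27281 and percentile 5.64. It was among the weakest calls of its list, and of the peaks nearest to it in rank only 2.4% were overlapped in replicate 1. The NOTCH1 peak held neither TGTTTAC nor GTGGGAA within 100 bp of its centre. A peak of both lists upstream of the NOTCH1 start, at 18570 bp in replicate 1 and 18643 bp in replicate 2, was named for NALT1. It had scores of 4.53 and 5.95 at percentiles 19.4 and 33.9, and held TGTTTAC in both. It was thus nearer to the NOTCH1 start than the shared JAG1 and HEY1 peaks were to theirs. Another peak of both lists, 42420 and 42403 bp upstream, was named for LINC01451, at percentiles 69 and 70.3.

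NOTCH2 and NOTCH3 had no assigned peak. For NOTCH2 the nearest peaks lay 75764 bp from the gene in replicate 1 and 75725 bp in replicate 2, and both were assigned to SEC22B. For NOTCH3 the nearest peak of replicate 1 lay 99821 bp away. In replicate 2 a peak at chr19:15177610-15177866 lay in NOTCH3 exon 24 of 33, but the deposited file named the microRNA gene MIR6795 for it. This exonic peak had a score of 6.39 at percentile 39.4, held no TGTTTAC, and had no counterpart in replicate 1. None of the 3 receptors thus had an assigned peak, or a peak inside the gene, in both replicates.

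Among the ligands, only JAG1, which encodes Jagged-1, was named for a peak. In replicate 1 its peak (chr20:10706000-10706210) had a score of 5.09 from about 27 tags, at percentile 32.7. In replicate 2 the peak (chr20:10705993-10706249) had a score of 10.4 from about 70 tags, at percentile 72.8. The centres were 16 bp apart and the whole replicate 1 peak, 210 bp, lay in the other. Both libraries thus called the same position. Its ranks were close, 7875 of 12471 and 7216 of 27281, so the percentiles cannot be compared between lists of such different length. With lists of equal length the mean percentile of this peak was 36.6 in place of 52.7. The peaks lay 32059 and 32075 bp upstream of the JAG1 start, inside the long noncoding RNA gene LINC01752 in GENCODE v44, whose start was nearer, at 9156 and 9172 bp. The heptamer printed above sat 8 and 24 bp from the peak centres.

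A second peak, in replicate 2 alone, lay in intron 5 of 25 of JAG1 and was named for MIR6870 (score 4.91, percentile 19.1). JAG2 and DLL1 were named for no peak. The nearest peaks were 115912 and 95029 bp from JAG2 in replicates 1 and 2. DLL1, which encodes a Delta-like ligand, had 2 peaks in replicate 2 inside its GENCODE span or just upstream, both named for the divergent neighbour FAM120B. The first, at chr6:170306496-170306752, was 59 bp upstream of the DLL1 start in GENCODE, 15546 bp upstream of its RefSeq start and 98 bp upstream of the FAM120B start, with a score of 7.73 at percentile 53.6. The other, at chr6:170295903-170296159, had a score of 9.22 at percentile 65.7 and held 1 TGTTTAC. It lay in the long GENCODE model of DLL1 but outside the 8873 bp RefSeq span, and replicate 1 had no peak within 246632 bp of either. The FAM120B start, which only the long GENCODE model of DLL1 shares, was therefore called in replicate 2 only.

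RBPJ, the DNA-binding partner of every Notch receptor, was named for more peaks than any of the other 9 genes, 3 in replicate 1 and 6 in replicate 2. By gene body and 5000 bp upstream, MAML2 held more, 3 and 12 against 2 and 5 for RBPJ. Genes with an assigned peak had a median of 1 peak in each list, and 4.03% of them had 6 or more in replicate 2. RBPJ is a long gene, however: per 100 kb of its GENCODE body and 5000 bp upstream it held 0.723 and 1.81 peaks, and 30.7% and 21.5% of genes of at least 100000 bp were denser. The strongest RBPJ peak was at the promoter, 54 bp upstream of the start in both lists. In replicate 1 (chr4:26319551-26319761) its score was 14.5 from about 77 tags, at rank 651 and percentile 94.5. In replicate 2 (chr4:26319528-26319784) its score was 34.9 from about 235 tags, at rank 375 and percentile 98.6. The centres of both peaks fell on the same base. The 2 GTGGGAA copies shown above were 22 bp upstream and 20 bp downstream of that centre. At least 1 GTGGGAA was found within 100 bp of 3.69% of all peak centres in replicate 1 and 3.79% in replicate 2, and 2 or more copies in 0.221% and 0.163% of peaks called promoter-TSS. This promoter peak carried no TGTTTAC, like most promoter peaks, of which 14.4% and 10.9% carried it.

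The other RBPJ peak present in both lists was the distal one. In replicate 1 (chr4:26145302-26145512) it had a score of 6.41 from about 34 tags, at percentile 56.1. In replicate 2 (chr4:26145297-26145553) it had a score of 8.18 from about 55 tags, at percentile 57.7. This peak sat near the middle of both lists. Its heptamer was 11 and 7 bp from the centres. The remaining RBPJ peaks were each in 1 list only. Replicate 1 had 1 at 122240 bp upstream (score 4.53, percentile 19.4). Replicate 2 had 4, at 158028, 97853, 81182 and 67293 bp upstream, with percentiles from 5.64 to 35.7. All 5 stood in the lower part of their list, and of these only the one 81182 bp upstream held TGTTTAC.

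The deposited annotation called every RBPJ peak other than the promoter peaks Intergenic. In GENCODE v44 RBPJ spans chr4:26163455-26435131 because of long transcripts that start further upstream. In that annotation 4 of these peaks, 1 of replicate 1 and 3 of replicate 2, lay in RBPJ introns, and the distal shared peak was 18048 and 18030 bp upstream of its first start. The RefSeq span of RBPJ starts further upstream still, at position 26105449, so that by RefSeq all 7 peaks called Intergenic, the distal shared peak included, lay inside the gene.

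MAML2, a Mastermind coactivator, was named for no peak, yet its 366.6 kb gene body contained 3 peaks in replicate 1 and 12 in replicate 2. The lists named MTMR2 for 2 and 4 of these and MIR1260B, a microRNA gene near the MAML2 start, for 1 and 8. None of the 15 overlapped a peak of the other replicate, and the closest pair of centres was 2168 bp apart. The 12 peaks of replicate 2 ranged from percentile 37.6 to 91.1, with scores of 6.25 to 17.3. The 3 peaks of replicate 1 ranged from percentile 47.5 to 72.1, with scores of 5.85 to 7.92. Of the peaks nearest to them in rank, between 75.8% and 91% were overlapped in the other list for those of replicate 1, and between 18.8% and 82.8% for those of replicate 2. TGTTTAC was within 100 bp of the centre in 5 of the 12 and in 0 of the 3, against 28.2% and 30.5% of all peaks in those lists.

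The strongest heptamer-bearing MAML2 peak (score 16.2, percentile 89.7) was in intron 2 of 4 at chr11:96012116-96012372. Its heptamer window, at chr11:96012114-96012180 on the plus strand of hg38, is shown with the match in capitals because no list attributes it to MAML2.
MAML2 intron 2: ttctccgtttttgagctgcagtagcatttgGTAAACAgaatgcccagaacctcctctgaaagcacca

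Per 100 kb, the MAML2 body and its 5000 bp upstream held 0.807 peaks in replicate 1 and 3.23 in replicate 2. The medians over 3665 genes of at least 100000 bp were 0.342 and 0.897. In replicate 1, 26.1% of these long genes had a higher density, and in replicate 2, 4.86%. MAML2 was therefore densely covered for its length in replicate 2 and less so in replicate 1.

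**Figure D2:**
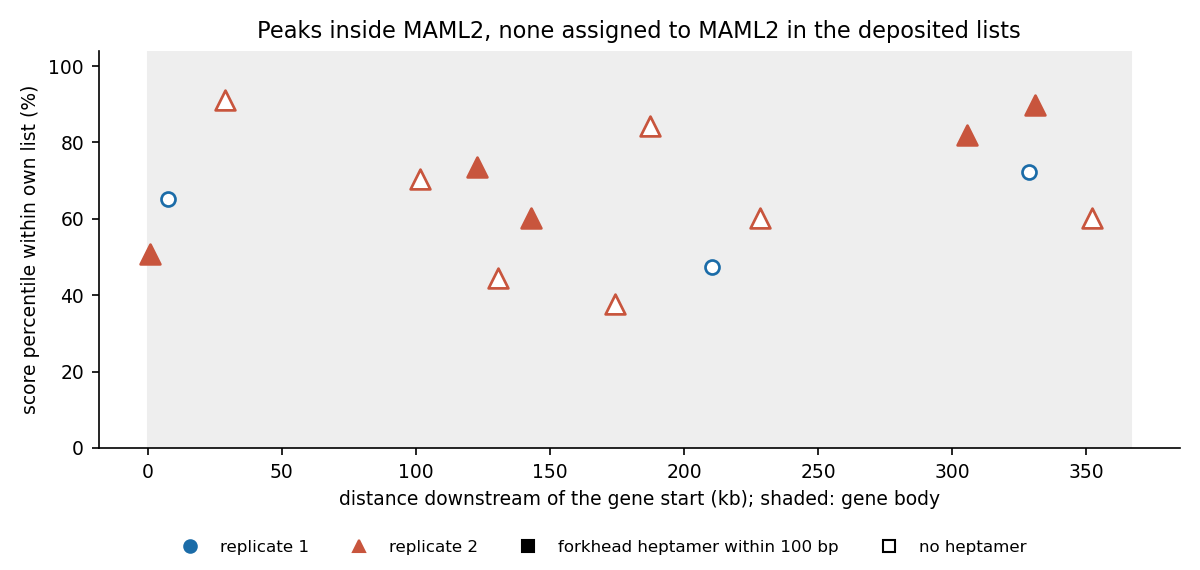
Score percentile of each peak inside MAML2 against its distance downstream of the gene start in kb, with circles for replicate 1, triangles for replicate 2, filled points for peaks with the forkhead heptamer within 100 bp, and the gene body shaded. The 3 circles and 12 triangles spread along the gene, and the filled points are all triangles.

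When a peak was assigned to every gene whose body, or 5000 bp upstream, held its centre, 3 of the 10 genes had a peak in replicate 1 (HES1, RBPJ and MAML2) and 8 in replicate 2. Over protein-coding genes with a GENCODE span these shares were 33.1% and 54%. The same 3 genes had a peak in both replicates, against 30.2%. The members of the list therefore changed with the rule: JAG1 and HEY1, whose shared peaks were distal, lost their place, and MAML2 gained one without any overlapping peak. NOTCH2 and JAG2 had no peak by either rule.

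HES1, the repressor most often used as a readout of Notch activity, had the highest-ranking peak of the group. In replicate 1 the peak 1212 bp upstream of its start had a score of 33.2 from about 176 tags, at rank 68 and percentile 99.4. In replicate 2 (chr3:194134813-194135069), 1201 bp upstream, it had a score of 61.4 from about 413 tags, at rank 77 and percentile 99.7. Both libraries placed it in the top 1% of their lists, with centres 11 bp apart. The deposited annotation called it Intergenic. In GENCODE v44 it lay 289 and 278 bp upstream of the start of a long noncoding RNA, ENSG00000289385, nearer than to HES1. Of 6784 genes with overlapping peaks, ranked by the mean percentile of their best pair, HES1 was number 66. RBPJ was number 524, HEY1 number 2162 and JAG1 number 4850. The genes next to HES1 in this order were LOC101927657 and SLC8A1 above it, and EXOSC5 and UBALD2 below it, all at a mean percentile of 99.6. This likeness is in score rank alone, over 2 samples.

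The other HES1 peak, 14 kb upstream, was moderate. In replicate 1 (chr3:194121966-194122176) it had a score of 5.85 from about 31 tags, at percentile 47.5. In replicate 2 (chr3:194122058-194122314) it had a score of 9.82 from about 66 tags, at percentile 69.4. Here the calls were less well aligned than at the other shared peaks of the group, with 118 bp in common and centres 115 bp apart. The same heptamer lay within both peaks, 27 and 88 bp from the centres. Around both centres there were also 2 copies of TGANTCA (N for any base), the letters bound by AP-1 proteins. At least 1 copy was found in 20.8% and 21% of all peaks. Of peaks not called promoter-TSS, 3.24% and 3.01% held 2 or more.

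HEY1, the other target, encodes a HES-related repressor. By the deposited distance, its shared peak lay 40235 bp downstream of a HEY1 start in replicate 1 and 40217 bp in replicate 2. From the GENCODE start of HEY1 it lay 41617 and 41599 bp downstream. In replicate 1 its score was 8.87 from about 47 tags, at percentile 78.7. In replicate 2 it was 15.2 from about 102 tags, at percentile 88.1. The centres were 18 bp apart, and 1 TGTTTAC was within 2 and 20 bp of them. In GENCODE v44 the nearest start was that of ENSG00000287052, 21111 and 21093 bp away. A closer and stronger peak of both lists, 26010 and 26033 bp upstream of the GENCODE start of HEY1, was named for LINC01607. It had scores of 11.9 and 18.7 at percentiles 90.3 and 93, and held no TGTTTAC. A peak at the HEY1 promoter, 61 bp upstream of the GENCODE start, was called in replicate 2 only. It had a score of 10.3 from about 69 tags at percentile 72.1, and held no TGTTTAC. Of the peaks nearest to it in rank, 50.8% were overlapped in replicate 1.

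**Figure D3:**
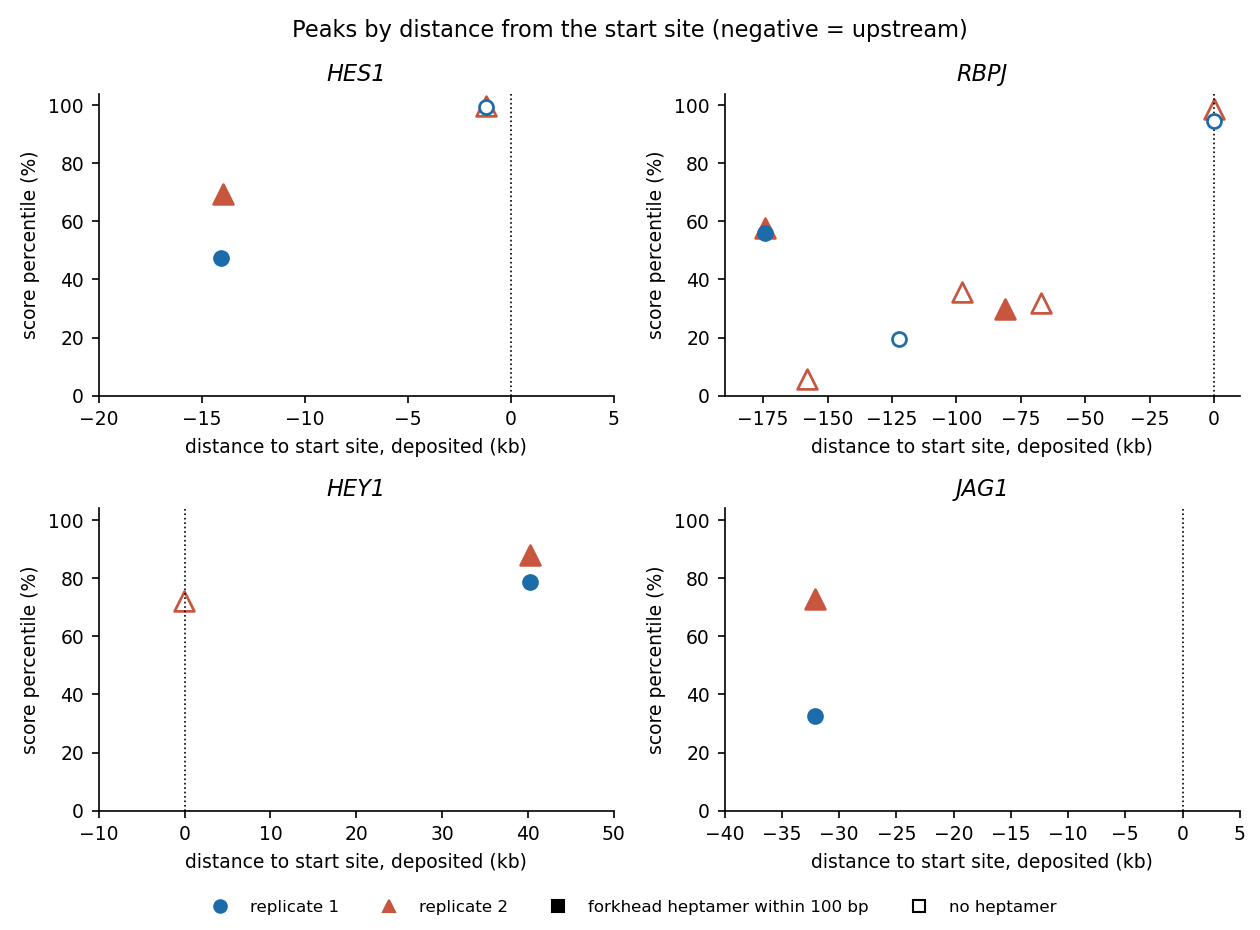
Score percentile against the deposited distance from the start site in kb (negative is upstream) for the peaks of HES1, RBPJ, HEY1 and JAG1, with circles for replicate 1, triangles for replicate 2, and filled points for peaks with the forkhead heptamer within 100 bp. Distal peaks found in both replicates are filled, while the peaks near the start sites are open.

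Across the group, peaks found in both replicates fell into 6 positions. The 4 distal ones, at HES1, HEY1, JAG1 and RBPJ, each held 1 TGTTTAC in both lists. Of all peaks not called promoter-TSS, 35% in replicate 1 and 32% in replicate 2 held it. The proximal HES1 peak, called Intergenic, belongs to that class and held none. Those shares also count peaks found in 1 list only, and the share among shared peaks alone was not computed. Shared peaks near these 4 genes but named for others went both ways. The 2 near a start site, at HES1 and RBPJ, held none and were the 2 highest-scoring, with 73.6% and 62.7% G and C around the centre, against list medians of 47.3% and 46.3%. Peaks called promoter-TSS had medians of 63.2% and 63.7%, close to the RBPJ promoter peak and below the HES1 peak. In the lists as a whole the heptamer was not scarcer among strong peaks, since 51.4% and 52.3% of peaks ranked 1000 or better carried it.

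Counted over all assigned peaks, 6 of 7 in replicate 1 were overlapped in replicate 2 (85.7%, 95% Wilson interval 48.7 to 97.4), against 74.9% of the list. In replicate 2, 6 of 12 were overlapped in replicate 1 (50%, 25.4 to 74.6), against 34.2%. TGTTTAC was within 100 bp of the centre in 4 of 7 peaks (57.1%, 25 to 84.2) and 5 of 12 (41.7%, 19.3 to 68), against 30.5% and 28.2% of the lists. In windows of the same width 2000 bp to either side, the heptamer was present in 7.14% and 4.17% for the group, and 2.88% and 2.89% for the lists. All 4 intervals for the group contained the share of the list.

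Peaks called promoter-TSS were 1 of 7 in replicate 1 (14.3%, 2.57 to 51.3) and 2 of 12 in replicate 2 (16.7%, 4.7 to 44.8), against 21.7% and 18% of the lists. Peaks called Intergenic were 6 of 7 (85.7%, 48.7 to 97.4) and 9 of 12 (75%, 46.8 to 91.1), against 34.1% and 36.5%. By the deposited classes both intervals lay above the share of the list, but this rested on the gene models used. Of these Intergenic peaks, 2 of the 6 and 5 of the 9 belonged to RBPJ and lay inside its RefSeq span, and the distal HES1 peak of each list lay inside the RefSeq gene LOC102724877. When Intergenic peaks inside any RefSeq protein-coding gene were left out, a count added after seeing the data, 3 of 7 (42.9%, 15.8 to 75) and 3 of 12 (25%, 8.89 to 53.2) remained, against 32.2% and 34.2% of the lists, which the intervals contain. The focus ratio, a fraction that HOMER gives for how well tags are placed around a peak centre, had medians of 0.769 and 0.791 in the group and 0.758 and 0.755 in the lists.

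**Figure D4:**
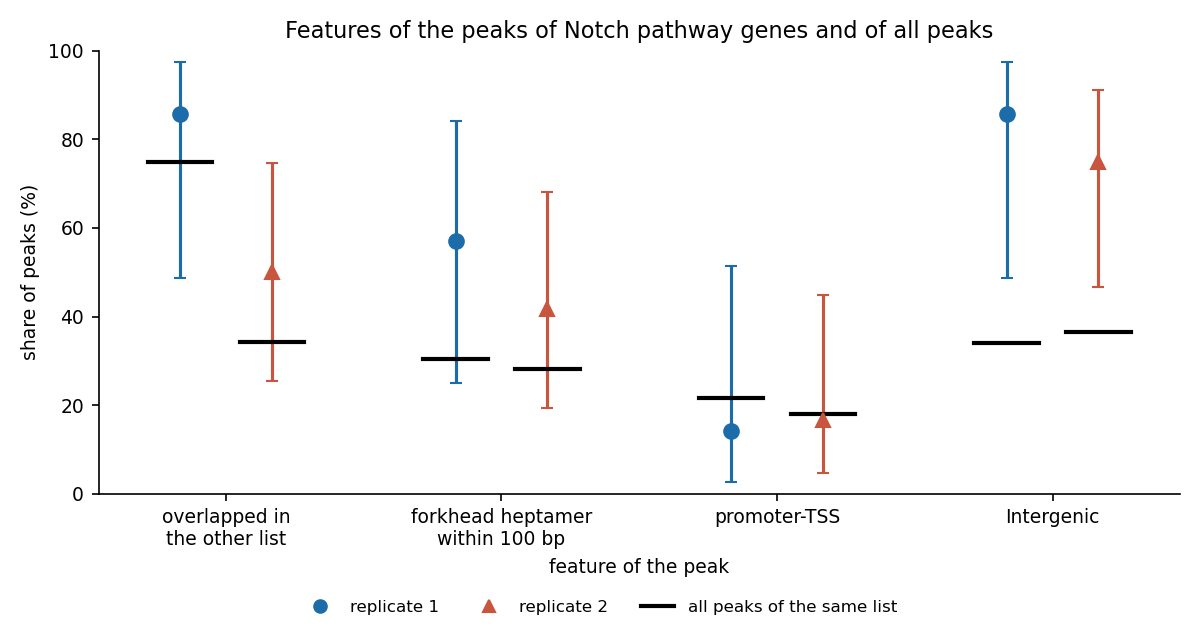
Share of peaks in percent with each of 4 features, for the peaks of the 10 Notch pathway genes (circles for replicate 1, n = 7; triangles for replicate 2, n = 12; bars are 95% Wilson intervals, counting error only) and for all peaks of the same list (black lines). Only for the deposited class Intergenic do the bars of both replicates lie above the line, and they do not when peaks inside RefSeq genes are left out (42.9% and 25%).

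RefSeq promoters, from 250 bases before to 50 after each start, were matched by symbol for 8 of the 10 genes, with 12 promoters in all. TGTTTAC was in 0 of these 12 and in 3.42% of all 35116 promoters. GTGGGAA was in 1 of 5 RBPJ promoters, in the HES1 promoter and in none of the others, against 6.25% of all promoters. All motifs were searched on both strands.

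The rest of the pathway was described with 58 further genes. Of these, 26 had an assigned peak in replicate 1 (44.8%) and 33 in replicate 2 (56.9%), against 31.3% and 51.7% of protein-coding genes, and 22 had one in both (37.9%, 26.6 to 50.8), against the 28.6% of protein-coding genes given above, a share inside that interval. For 18 (31%) the peaks overlapped, against 25.5%, and 21 (36.2%) had no peak in either list, against 45.6%.

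Among the 22 further genes that send, receive or release the signal, 5 had peaks in both lists (22.7%, 10.1 to 43.4), an interval that contains the 28.6% of protein-coding genes. The remaining receptor NOTCH4 and the ligands DLL3 and DLL4 were named for no peak, although 1 and 2 peaks lay inside NOTCH4 or within 5000 bp upstream. Of the noncanonical ligands DLK1 and DLK2, DLK2 had overlapping peaks, at percentiles 14.6 and 17.1, and DLK1 had peaks in replicate 2 only. Of 5 enzymes that add or extend sugars on the receptor, 0 had a peak in both lists, and of the 2 ADAM proteases that make the first cut, 0 did. Gamma-secretase, the protease that releases the intracellular domain, had peaks at 2 of its 6 genes in both lists (PSEN2 and NCSTN) and at 5 in replicate 2. Among 4 genes for ubiquitin ligases that drive ligand endocytosis, MIB1 and NEURL1 had overlapping peaks.

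Among cofactors acting in the nucleus, coactivators had peaks in both lists at 4 of 6 genes (66.7%, 30 to 90.3), MAML3, SNW1, CREBBP and KAT2B, and corepressors at 7 of 13 (53.8%, 29.1 to 76.8). The lower bounds of both intervals lay just above the 28.6% of protein-coding genes. The intervals cover counting error only, and several roles were looked at. Enrichment of either role was not tested. Overlapping peaks were named for 4 of 6 coactivators (66.7%) and 6 of 13 corepressors (46.2%), against 25.5% of protein-coding genes. Among these corepressors, the best overlapping peaks of TLE1, TLE3 and TLE4 were called Intergenic. In replicate 1 they lay 370752, -173624 and -209567 bp from the start (negative is upstream). Those of the rest were at promoters or in an intron. MAML3, the paralogue of MAML2, had overlapping promoter peaks at percentiles 93 and 97.9, each with 1 TGTTTAC. NEURL1 had overlapping peaks at percentiles 91.3 and 97.3 and 10571 and 10617 bp downstream of the start, without the heptamer. These 2 were the only further pathway genes whose overlapping peaks were at or above the 90th percentile in both lists. NUMB, which encodes an inhibitor of Notch, came closest with promoter peaks at 89 and 90.2, and the corepressor TLE1 followed at 86.5 and 90.4. Of 10 negative regulators, 4 had peaks in both lists (40%, 16.8 to 68.7), and of the 7 other HES and HEY family genes 2 did (28.6%, 8.22 to 64.1), intervals that contain the 28.6% of protein-coding genes. Among the peaks of these 7 genes, only those of HES2 overlapped, at percentiles 29 and 39.4. HES1 thus had a far higher percentile than these relatives. The differences between roles were not tested.

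**Figure D5:**
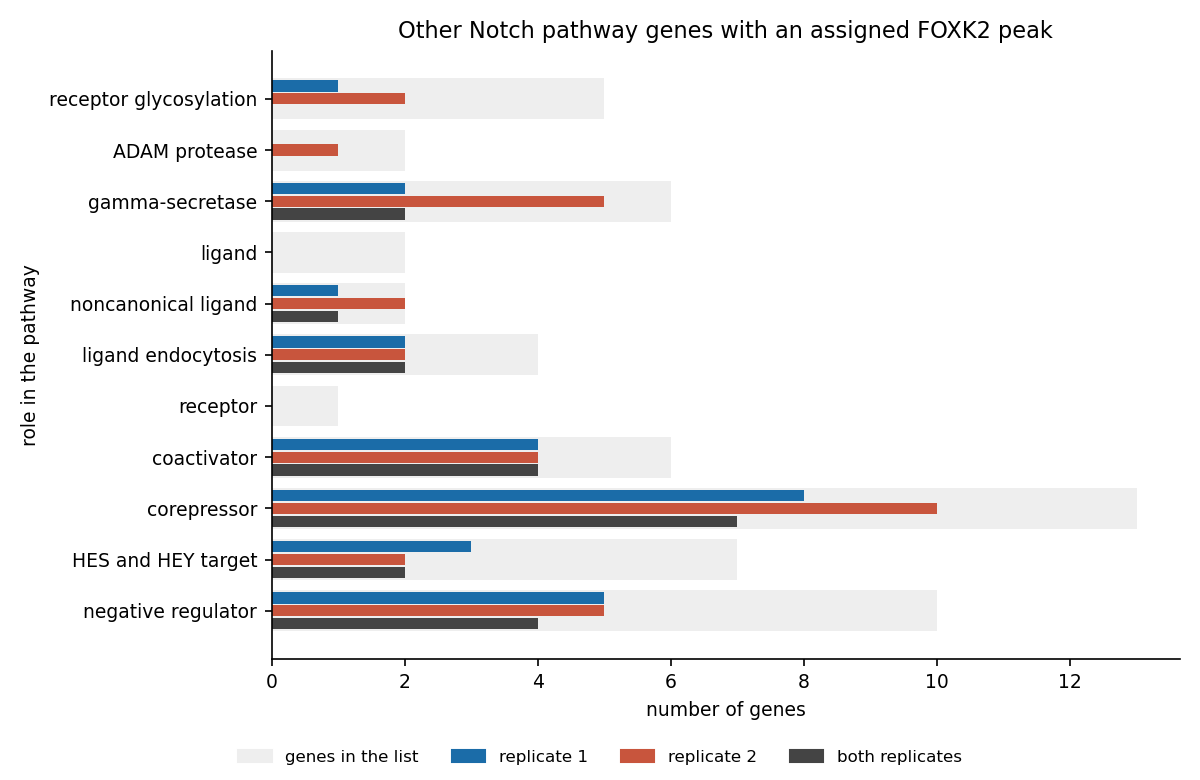
Number of the 58 further Notch pathway genes with an assigned FOXK2 peak, by role, as horizontal bars for replicate 1, replicate 2 and both replicates over a grey bar for all genes of that role. Against 28.6% of protein-coding genes, corepressors reach 7 of 13 (29.1 to 76.8%) and coactivators 4 of 6 (30 to 90.3%) in both replicates, while receptor glycosylation, ADAM proteases, the receptor and the ligands have no bar for both. Intervals cover counting error only, and enrichment of a role was not tested.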

How the data were processed

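Per the authors' methods, single-end reads were mapped to hg38 with Bowtie2 2.2.6, and peaks were called in each replicate and annotated with HOMER 4.10. Calling settings are not given in the sources used here. The deposited lists hold a peak score scaled by the authors to each library, a focus ratio (a fraction), positions and the distance to the nearest TSS. Reads and input libraries are not analysed here, so enrichment over input could not be recomputed, and library depth is known only through the tags behind each score.

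Peaks were taken by gene name and ranked within their list. A peak was shared when it overlapped one of the other list by at least 1 bp. Heptamers were searched in GRCh38 within 100 bp of each centre. Gene bodies were from GENCODE v44, plus 5000 bp upstream. Of 68 pathway genes, 67 matched RefSeq (assembly GRCh38). Intervals are Wilson, 95%, and cover counting error only. With 1 group and no second condition, no test between groups was made.

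All 10 genes are named. Other pathway genes are named by role, or where overlapping peaks reached the 90th percentile in both lists. TLE1, TLE2, TLE3, TLE4, NUMB, CIR1 and HES2 were singled out after their values were seen. A further gene of the list is not reported here. The genes and lists were chosen with earlier results of these data known. TNTTTAC, the RefSeq spans and the Intergenic count by RefSeq were added after seeing the data. Overlap and motif searches were tested on simulated data. Python 3.11.15, pandas 2.3.3 and pysam 0.24.0 were used.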

Additional observations from a re-analysis of the deposited data

How the results depend on the processing

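Of 60 alternative values of the main counts and shares, 40 stayed within 1.5 times the count or inside the interval of the share. The number of the 10 genes with a peak in both lists (4) became 2 within 10000 bp of the TSS and 1 for promoter-TSS peaks alone. Otherwise it was 3 to 5. With a replicate left out, the count was of genes with a peak in the remaining list, 4 to 5. Such single-list values are among the 60 and do not bear on sharing between lists. Their peaks numbered 2 and 4 within 10000 bp. In replicate 2 the 12 peaks became 7 in the higher-scoring part, 7 with lists of equal length, 24 by gene body and 25 by RefSeq span. Over both lists, leaving out a replicate gave 7 to 12 peaks in place of 19, which are the counts of the single lists. Overlap in replicate 1 became 100% in the higher-scoring part and 100% within 10000 bp, and in replicate 2 became 85.7% with lists of equal length. Within 10000 bp the heptamer share was 0% in replicate 1 and 0% in replicate 2, since the heptamer peaks were distal. The shares of promoter-TSS and heptamer peaks over both lists were 14.3 to 16.7% and 41.7 to 57.1% when a replicate was left out.

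The 22 further pathway genes became 10 in the higher-scoring part, 13 with lists of equal length and 14 within 10000 bp. They became 6 for promoter-TSS peaks and 37 for a peak in either list. With a replicate left out, the remaining list alone gave 26 to 33. The share of protein-coding genes was not computed by score, list length, distance or promoter-TSS class. Whether the counts of the 10 or of the further genes fell more than those of other genes is therefore not known. With any base at position 2 (TNTTTAC), chosen after seeing the data, 5 of 7 and 6 of 12 peaks matched, against 39.9% and 38.1% of the lists. No paired analysis was possible because no input or second condition is analysed here. With 7 and 12 peaks, shares are known only within wide intervals, and a gene without a peak may have been under the calling threshold.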

Other observations

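The TLE genes and CIR1, all corepressors, were looked at after their values were seen. TLE1, a Groucho-family corepressor, had 3 peaks in replicate 1 and 13 in replicate 2. The best shared peak of TLE1 was 370752 bp from its start, and it held TGTTTAC in both lists. TLE3 and TLE4 had 5 and 3 peaks in replicate 1 and 4 and 4 in replicate 2, and TLE2 had 1 in each. Genes with a peak had a median of 1 in each list, and 0.873% and 4.03% of them had 6 or more. These counts are of peaks named for the gene. By gene body and 5000 bp upstream, TLE1, TLE3 and TLE4 held 0, 1 and 1 peaks in replicate 1. In replicate 2 they held 3, 0 and 1. CIR1, a corepressor that binds RBPJ, had a promoter peak at percentile 95.4 in replicate 2 and no peak in replicate 1.

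The gene body of MAML3 held 3 peaks in replicate 1 and 13 in replicate 2, close to the 3 and 12 of its paralogue MAML2. In the deposited lists only 1 and 1 of the MAML3 peaks were named for the gene.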
